A study of Rattus norvegicus with 8 samples.

Results

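The mitochondrial respiratory complexes II to V were followed in rat liver through the 54 genes whose names on the array begin with Sdh followed by a, b, c or d, with Uqcr or Uqcc, with Cox followed by a digit, or with Atp5, out of 26674 genes on the array. These 54 genes had 66 of the 30367 probes, and 52 of them were among the 14931 genes that passed the filter on background and were tested. The livers came from 8 Wistar rats aged 21 days. The MDD group (methyl donor deficiency, n = 4, 2 females and 2 males) was born to dams that received a diet lacking vitamin B12 and folates, begun before pregnancy and kept until weaning. The control group (n = 4, 3 females and 1 male) was born to dams on standard diet. Each of 4 Agilent arrays held 1 MDD and 1 control liver, in 2 dyes (the MDD liver in Cy5 on arrays 2 and 4 and in Cy3 on arrays 1 and 3), as MDD 3 with control 1 on array 1, MDD 1 with control 3 on array 2, MDD 4 with control 2 on array 3 and MDD 2 with control 4 on array 4. The labels call the 8 samples independent experiments but do not say which rats shared a dam. The sample titles carry letter codes of unstated meaning, in which MDD 2 and MDD 4 share the letter G and controls 1, 2 and 3 share the letter B. No term for this letter was fitted, and p-values measure the spread between these livers.

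The respiratory chain passes electrons from fuel molecules to oxygen and uses the energy to pump protons across the inner mitochondrial membrane. Complex II (succinate dehydrogenase, Sdh genes) also works in the tricarboxylic acid cycle and feeds electrons to ubiquinone, complex III (the cytochrome bc1 complex, Uqcr genes) passes them to cytochrome c, complex IV (cytochrome c oxidase, Cox genes) hands them to oxygen, and complex V (ATP synthase, Atp5 genes) lets the protons flow back and makes ATP. Liver uses this machinery to burn fatty acids and to power the synthesis of glucose and urea. Several subunits of complex IV exist in a widespread form and in a form known from striated muscle or testis, and complex IV needs dedicated factors that insert its copper and heme.

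The set held the subunits of the 4 complexes, 8 tested assembly factors and 6 tested genes that share the name stem but were counted as neither. Those 6 were Cox7a2l, which encodes a factor that joins complexes III and IV into supercomplexes, Atp5s (now Dmac2l, coupling factor B), Atp5sl (now Dmac2), Cox4nb (now Emc8, a neighbour of Cox4i1 that encodes part of an endoplasmic reticulum complex), Cox6c1 (now the pseudogene Cox6c-ps1) and Atp5hl1, a copy of Atp5h whose probe signal cannot be told apart with certainty from that of Atp5h itself. The current symbol differed from that on the array for 20 of the 54 genes. The mitochondrially encoded subunits fall outside these name stems, and the subunits Cox6b1 and Cox7a1 were not analysed here.

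Each gene was read by probes of 60 bases. Those of the copper chaperone gene Cox17, at chr11:64183573-64183632 on the minus strand, and the second probe of the subunit gene Cox7a2, at chr8:84814091-84814150 on the minus strand (build rn4, as the array files give it), are shown because both genes passed the test for diet. The tested value of Cox7a2 came from its brighter probe, at chr8:84813316-84813375.
Cox17 probe: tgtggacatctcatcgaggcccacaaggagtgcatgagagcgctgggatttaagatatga
Cox7a2 second probe: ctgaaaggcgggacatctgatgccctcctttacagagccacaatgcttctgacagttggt
No annotation of rn4 was used here, so the exon under each probe is not given.

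Nuclear genes of the respiratory chain are known in mammals to share promoter motifs for NRF-1, for the ETS factor GABP (NRF-2), for the estrogen-related receptors and for YY1. Promoter sequences running from 250 bases before to 50 bases after the annotated start (RefSeq, GRCr8) were matched to 45 of the 54 genes. The motif GCGCANGCG (NRF-1) was present on either strand in 12 of these 45 promoters (26.7%), against 5.8% of 33469 rat promoters of the same length. The motif CCGGAAG (ETS) was present in 19 of 45 (42.2%), against 8.75% of all promoters. TCAAGGTCA (estrogen-related receptor) was found in 2 promoters, those of Sdhd and Atp5g3 (4.44%, against 0.433%), and GATGGCG (YY1) in 4 (8.89%, against 3.89%). In the 34 promoters of subunit genes the shares were 23.5% (NRF-1), 38.2% (ETS), 5.88% (estrogen-related receptor) and 11.8% (YY1). The 19 promoters with the ETS motif include those of Cox4i1 and Cox4nb, whose windows overlap. The promoters compared were not matched for base composition. None of these motifs contains another, and a match describes the sequence and is no evidence of binding.

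Of the 4 genes that passed the test for diet, Cox7a2 had 1 ETS match, Cox7a2l had 1 NRF-1 match, and Cox17 and Atp5s had no match to any of the 4 motifs in this window. The promoters of Cox7a2 (chr8:89601100-89601399, minus strand) and Cox7a2l (chr6:16936324-16936623, plus strand) are shown for that reason. That of Sdhb (chr5:158547684-158547983, plus strand) belongs to the complex II gene with the largest difference in that complex. That of Cox4i1 (chr19:65630133-65630432, plus strand) is shown because it overlaps the promoter window of Cox4nb, which runs on the opposite strand (chr19:65630186-65630485), so that these 2 genes share both of their ETS matches. All coordinates are GRCr8, and capitals mark the motif letters on either strand.
Cox7a2 promoter: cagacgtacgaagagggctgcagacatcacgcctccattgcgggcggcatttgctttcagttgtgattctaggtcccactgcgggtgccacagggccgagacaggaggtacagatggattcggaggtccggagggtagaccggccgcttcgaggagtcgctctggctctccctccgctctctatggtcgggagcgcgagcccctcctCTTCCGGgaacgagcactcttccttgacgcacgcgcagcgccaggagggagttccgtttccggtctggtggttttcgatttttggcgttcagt
Cox7a2l promoter: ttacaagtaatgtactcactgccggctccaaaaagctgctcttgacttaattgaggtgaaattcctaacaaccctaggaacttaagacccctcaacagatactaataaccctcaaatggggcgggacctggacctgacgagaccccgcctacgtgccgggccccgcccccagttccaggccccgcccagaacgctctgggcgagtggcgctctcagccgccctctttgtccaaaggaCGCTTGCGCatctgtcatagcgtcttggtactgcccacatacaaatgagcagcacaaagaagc
Sdhb promoter: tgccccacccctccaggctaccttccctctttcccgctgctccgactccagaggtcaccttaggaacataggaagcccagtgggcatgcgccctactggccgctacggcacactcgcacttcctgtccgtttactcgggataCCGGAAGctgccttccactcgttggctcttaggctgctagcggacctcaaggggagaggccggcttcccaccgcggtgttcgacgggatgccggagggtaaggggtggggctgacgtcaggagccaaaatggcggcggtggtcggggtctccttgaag
Cox4i1 promoter: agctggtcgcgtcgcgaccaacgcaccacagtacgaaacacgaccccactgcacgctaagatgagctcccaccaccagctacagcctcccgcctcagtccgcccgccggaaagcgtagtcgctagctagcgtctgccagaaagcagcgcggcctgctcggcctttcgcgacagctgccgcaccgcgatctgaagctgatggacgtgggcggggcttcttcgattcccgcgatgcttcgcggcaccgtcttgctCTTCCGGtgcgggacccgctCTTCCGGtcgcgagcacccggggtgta

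The values below are log2 normalized intensities, and differences are MDD minus control on the log2 scale from a limma fit of diet, corrected for dye and with each array as a random block, with Benjamini-Hochberg adjustment over the 14931 genes. Median spot signals were between 152.5 and 299 above local backgrounds of 33 to 58, between 59.1% and 65.5% of spots lay well above background, and 0 spots were saturated. The tissue label was borne out by the 12 hepatocyte markers, which were well above background in all 8 livers. Their summed log2 intensity lay between 20.11 and 20.72 in MDD livers and between 20.82 and 21.06 in control livers, and 5 of the 12 (Ahsg, Fgb, Serpina1, Tf and Ttr) fell. Tat (0.92) and Apoa1 (0.35) lay above 0 without a call, and the other uncalled hepatocyte markers lay below 0. Over all genes tested, 6.58% were called lower. Of the 9 neutrophil markers on the array 6 were tested and 5 fell, with a summed log2 intensity of 10.65 to 11.15 in MDD livers and 11.29 to 12.07 in control livers. The part of these shifts in the results below was not tested, and in whole liver fewer cells of a type and less RNA per cell cannot be told apart.

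In MDD livers 4 genes of the set rose: the copper chaperone gene Cox17 (1.35-fold), the coupling factor gene Atp5s (1.37-fold), the complex IV subunit gene Cox7a2 (1.32-fold) and the supercomplex factor gene Cox7a2l (1.23-fold). This is 4 of 52 (7.69%), beside 4.57% of all genes tested. With the array as a fixed block, from the ratios within arrays, or without any array block, limma called 0 of the 52, with 8 higher at an unadjusted p under 0.05 in each of these fits. They called 1.42%, 1.42% and 1.16% of all genes higher. The fixed-block and ratio fits make the same comparison within arrays and gave the same counts, so they are not separate checks. By the random-block limma test 0 of 52 fell, and 0 had an unadjusted p under 0.05 with a negative difference, beside 6.58% and 14.8% of all genes. At an unadjusted p under 0.05, 13 of 52 were higher, beside 12.9% of all genes. The differences were small, with a median of 0.09 over the 52 genes and of 0.01 over all genes, and 38 of 52 (73.1%) lay above 0, beside 51.8% of all genes.

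Counts that do not use the model were made from the same values as the fit and are no separate support for it. They carry no dye term. The MDD and control values did not overlap, with MDD higher, for 6 of 52 genes (Sdhb, Cox5b, Cox7a2, Cox8a, Cox17 and Cox7a2l), beside 5.53% of all genes, and 0 of 52 were separated with MDD lower, beside 5.94%. The MDD liver was higher than the control liver on each of the 4 arrays for 11 of 52 genes, beside 13.5% of all genes. These 11 were Sdhb, Sdhc, Cox5b, Cox7a2, Cox7c, Cox8a, Cox17, Cox7a2l, Atp5d, Atp5j and Atp5s. The MDD liver was lower on each of the 4 arrays for 0 of 52, beside 13.8% of all genes.

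The calls depended on single livers, in the set and over all genes. Without MDD 4, control 1, control 2 or control 3, limma called 0 of 52 genes in either direction, with 10, 8, 10 and 6 genes higher at an unadjusted p under 0.05. In these fits 1.53%, 1.82%, 1.6% and 1.32% of all genes were called higher, against 4.57% in the main fit. Without MDD 1 there were 2 calls (Cox17 and Cox7a2l), without MDD 3 there were 3 (Atp5s, Cox17 and Sdhb), and without control 4 there were 2 (Cox17 and Cox7a2). Of all genes, 4.53%, 4.78% and 2.61% were called higher in these fits. Without MDD 2 there were 13 genes called higher and 2 called lower (Atp5a1 and Atp5f1), while 10.9% of all genes were called higher. Leaving out a whole array gave 1 call without array 1 (Cox17), 2 without array 2 (Atp5s and Cox7a2l), 0 without array 3, with 5 higher at an unadjusted p under 0.05, and 10 without array 4, where Atp5f1 was called lower. Without arrays 1, 2, 3 and 4, limma called 3.08%, 2.87%, 0.63% and 8.12% of all genes higher. With sex added to the fit 0 of 52 were called, with 11 higher at an unadjusted p under 0.05. That fit called 2.28% of all genes higher. Cox17 was called in 6 of these 12 fits that leave out a liver or an array, and Atp5s, Cox7a2 and Cox7a2l in 3 of 12 each.

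**Figure D1:**
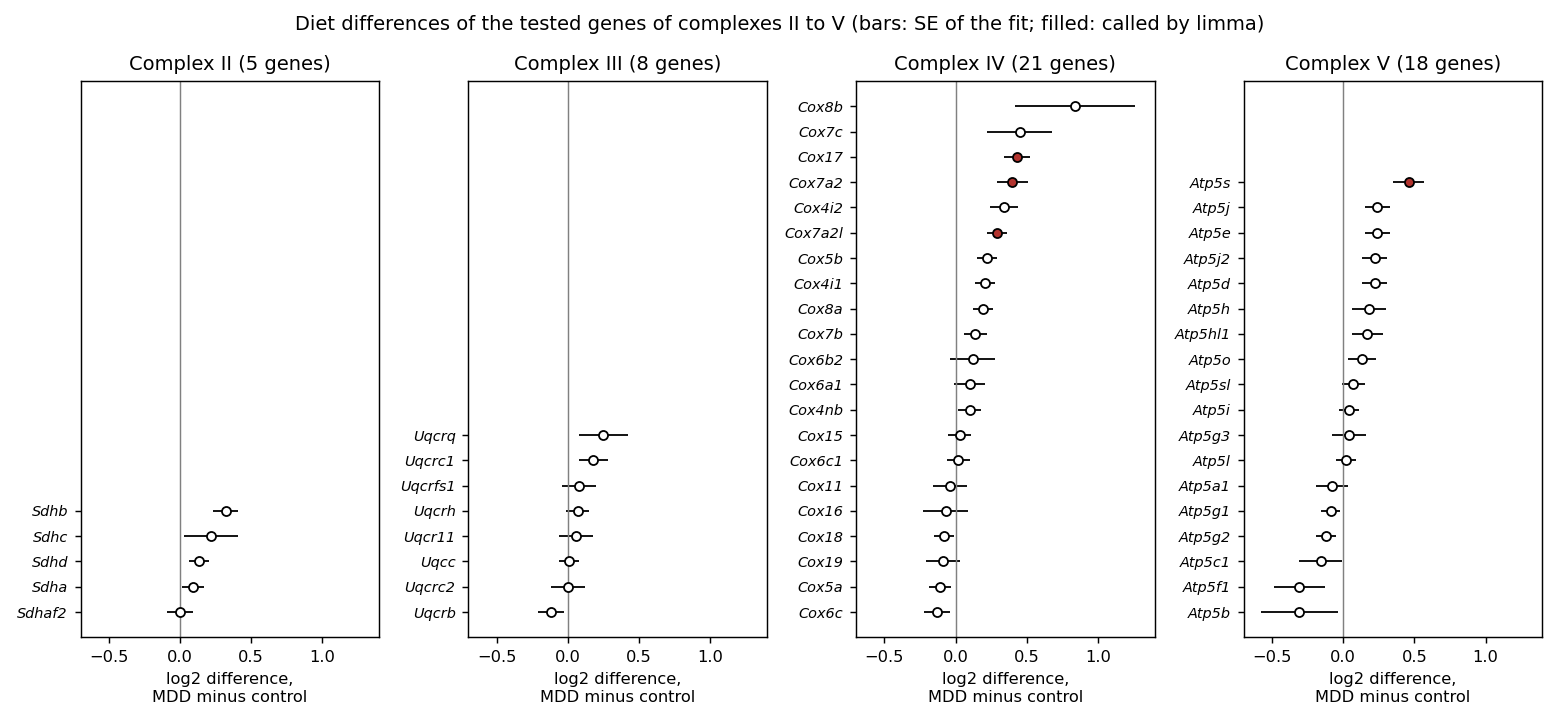
Log2 difference of each tested gene, MDD minus control, by complex, with the standard error of the limma fit as bars. Filled points are the 4 genes that passed the test (Cox17, Cox7a2, Cox7a2l and Atp5s), and most of the other points lie between 0 and 0.34 or slightly below 0.

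In complex II all 5 tested genes had differences from 0 to 0.32, with a median of 0.13 and 0 calls (1 at an unadjusted p under 0.05). The iron-sulfur subunit gene Sdhb came closest to the threshold. Its log2 intensity was 14.33, 14.09, 13.88 and 14.15 in MDD livers 1 to 4, against 13.80, 13.83, 13.69 and 13.85 in control livers 1 to 4. The lowest MDD liver, MDD 3, lay above the highest control liver. The difference was 0.32 ± 0.09 (SE, 95% interval 0.11 to 0.52), with an adjusted p of 0.0571 by limma, and Sdhb was called in 5 of the 29 alternative settings.

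The flavoprotein gene Sdha, whose product carries the succinate site, averaged 13.34 ± 0.12 in MDD livers and 13.25 ± 0.13 in control livers (SD, n = 4 each), a difference of 0.09 (95% interval -0.09 to 0.27). The membrane anchor gene Sdhd averaged 14.31 ± 0.06 in MDD livers and 14.19 ± 0.13 in control livers, and its groups overlapped. The other anchor gene, Sdhc, was 13.11, 13.24, 12.11 and 13.03 in MDD livers 1 to 4, against 11.98, 12.79, 12.90 and 12.93 in control livers 1 to 4. The 2 livers on array 1, MDD 3 and control 1, were both lower than the other 6 by more than 0.6, and within every array the MDD liver was the higher one, by 0.12 to 0.31. The difference of 0.22 ± 0.19 (SE) did not pass the test (adjusted p = 0.506, limma). Sdhaf2, the factor that helps attach flavin to Sdha, averaged 12.65 in both groups. In the 5 female livers alone the median of complex II was -0.03.

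In complex III 0 of 8 tested genes were called by limma, and 0 had an unadjusted p under 0.05 in either direction. The median difference was 0.07, from -0.12 for Uqcrb to 0.25 for Uqcrq, a subunit close to cytochrome b. The core protein genes differed little, Uqcrc1 by 0.18 ± 0.10 (SE), Uqcrc2 by 0.00 ± 0.12 and the Rieske iron-sulfur protein gene Uqcrfs1 by 0.08 ± 0.12. All 3 core genes were higher in the MDD liver on arrays 1, 3 and 4 and lower in it on array 2, where the differences were -0.11, -0.52 and -0.28. The hinge protein gene Uqcrh averaged 15.28 ± 0.12 in MDD livers and 15.21 ± 0.02 in control livers (SD, n = 4 each). Uqcr11 had 3 probes, whose differences were 0.06 for the brightest and 0.26 and 0.25 for the others. The assembly factor gene Uqcc, now Uqcc1, averaged 9.35 in both groups. Of 5 further genes of complex III and cytochrome c outside the name rule, limma called 0, and their median difference was -0.02.

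Complex IV held 3 of the 4 calls, among 21 of the 52 tested genes (14.3%, beside 4.57% of all genes called higher). Its 21 genes were assigned by name stem, with Cox4nb and Cox6c1 included, and had a median difference of 0.12. The calls were 1 of its 12 tested subunit genes (8.33%), Cox7a2, with the assembly factor gene Cox17 and the supercomplex factor gene Cox7a2l. Cox17 encodes the small intermembrane protein that supplies copper for the oxidase. Its log2 intensity was 14.81, 14.54, 14.34 and 14.55 in MDD livers 1 to 4, against 14.27, 14.06, 14.12 and 14.07 in control livers 1 to 4. The groups did not overlap, although MDD 3 lay only 0.07 above control 1, its partner on array 1. The difference was 0.43 ± 0.09 (SE, 95% interval 0.22 to 0.64), with an adjusted p of 0.0208 by limma. Cox17 was called in 18 of the 29 alternative settings, more often than any other gene of the set.

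Cox7a2 encodes the subunit VIIa isoform of liver and most other tissues. It measured 15.52, 15.07, 14.98 and 15.05 in MDD livers 1 to 4, against 14.82, 14.67, 14.70 and 14.84 in control livers 1 to 4. Every MDD liver was above every control liver, and MDD 1 stood highest. The difference was 0.40 ± 0.11 (SE, adjusted p = 0.0481 by limma), and the second probe of the gene, whose sequence is shown above, gave 0.41. Cox7a2 was called in 9 of 29 settings.

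Cox7a2l, the gene of the supercomplex factor, measured 14.05, 14.14, 13.94 and 13.99 in MDD livers 1 to 4, against 13.66, 13.80, 13.81 and 13.67 in control livers 1 to 4. The groups did not overlap and both had an SD of 0.08. The difference was 0.29 ± 0.07 (SE, adjusted p = 0.039 by limma), and it was between 0.19 and 0.47 on the 4 arrays. Cox7a2l was called in 12 of 29 settings.

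**Figure D2:**
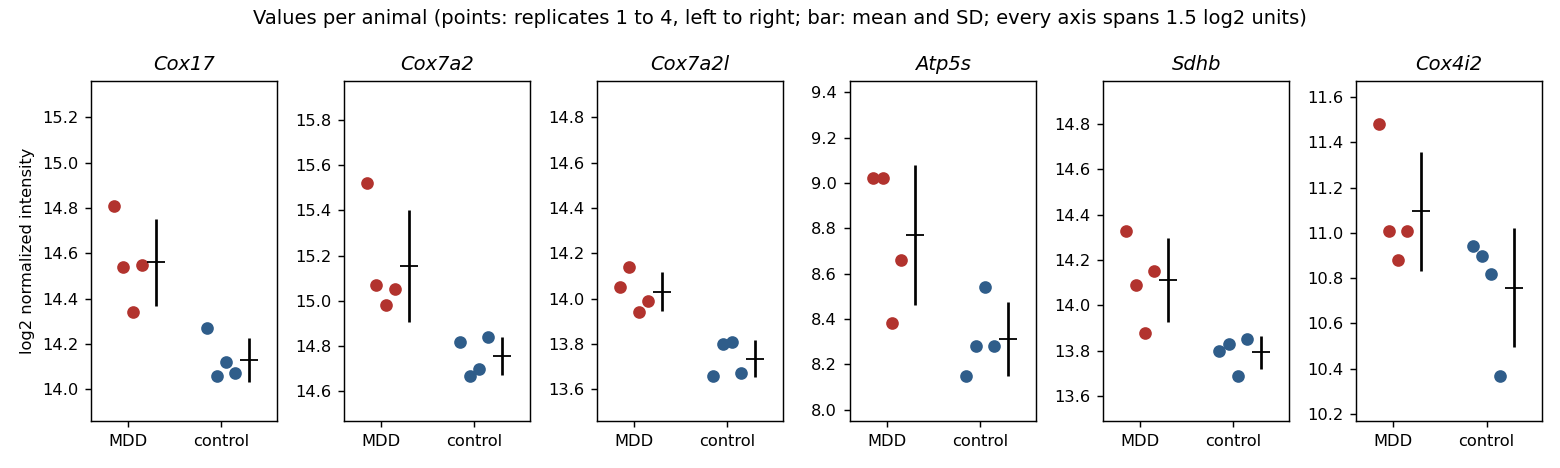
Log2 normalized intensity of 6 genes in each liver, MDD at left and control at right in each panel, with the mean and SD beside the points. MDD and control points do not overlap for Cox17, Cox7a2, Cox7a2l and Sdhb, and they overlap for Atp5s and Cox4i2.

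Among the other widespread subunits of complex IV, Cox8a was higher in every MDD liver (15.72 to 15.83) than in every control liver (15.55 to 15.61), with SDs of 0.05 and 0.02. Its difference was 0.19 ± 0.07 (SE) and missed the threshold (adjusted p = 0.102, limma). Cox5b, which binds zinc, was 15.91 to 16.17 in MDD livers and 15.71 to 15.87 in control livers, also without overlap, with a difference of 0.22 and an adjusted p of 0.0865 by limma. Cox4i1, the widespread form of the largest nuclear subunit, differed by 0.21 ± 0.07 (SE, adjusted p = 0.088, limma), and its promoter partner Cox4nb by 0.10 ± 0.08. Cox5a and Cox6c lay on the other side of 0, at -0.11 and -0.13, with overlapping groups. Cox7c had the widest values among these subunits, 10.62 to 12.21 in MDD livers and 10.59 to 11.51 in control livers, and array 1 again held the lowest liver of each group.

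Of the assembly factor genes of complex IV, Cox17 was called and the other 5 were not. Cox11, which works in the delivery of copper, differed by -0.04, and Cox15, an enzyme of heme A synthesis, by 0.03. Cox16, Cox18 and Cox19 differed by -0.07, -0.08 and -0.09. The SEs of these 5 genes were between 0.07 and 0.16. Of 18 further assembly and associated genes of complex IV whose names fall outside the name rule, limma called 0 in either direction, and their median difference was 0.13.

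The tissue isoforms of complex IV divided into a pattern shared by the diet groups and a pattern of 1 liver. Cox4i2, the alternative form of subunit IV known from lung, was 11.48, 11.01, 10.88 and 11.01 in MDD livers 1 to 4, against 10.94, 10.90, 10.82 and 10.37 in control livers 1 to 4. The groups overlapped by 1 MDD liver, and the difference of 0.34 ± 0.10 (SE) had an adjusted p of 0.0603 by limma. Cox6b2, known from testis, averaged 12.38 ± 0.47 in MDD livers and 12.25 ± 0.28 in control livers (SD, n = 4 each). Cox8c, also known from testis, was not well above background in any of the 8 livers and was not tested.

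The striated muscle isoforms stood apart in MDD 3. Cox6a2 had a log2 intensity of 10.44 in MDD 3, against 6.65 to 7.02 in the other 3 MDD livers and 6.44 to 7.0 in the 4 control livers. It was well above background in 2 livers, MDD 3 and control 1, both on array 1, and was therefore not tested. Cox8b was 10.19 in MDD 3, against 7.0 to 7.76 in the other MDD livers and 7.13 to 7.44 in control livers. Its difference of 0.84 ± 0.42 (SE) was the largest of the set in size, and it did not pass the test (adjusted p = 0.234, limma). Their widespread partners did not show this, since Cox6a1 and Cox8a of MDD 3 lay at 16.77 and 15.74, beside 16.57 to 16.74 and 15.72 to 15.83 in the other MDD livers.

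Skeletal muscle markers were high in the same liver. Of 22 such markers on the array, 15 were over 1 log2 unit higher in MDD 3 than in control 1 on array 1, with a median of 2.10, while the medians on arrays 2, 3 and 4 were 0.05, 0.13 and -0.07. Their summed log2 intensity was 14.28 in MDD 3, 12.05 to 12.49 in the other MDD livers and 11.74 to 12.09 in control livers. Creatine kinase M (Ckm) reached 10.22 in MDD 3, against 6.31 to 6.63 in the other MDD livers and 6.17 to 6.98 in control livers, and it was well above background in 1 MDD and 1 control liver. Of 10 heart markers, 4 (Myh6, Myh7, Myl2 and Myl3) were over 1 log2 unit higher in MDD 3 than in control 1, while Nppa, Nppb and Myl7 differed by 0.09, 0.10 and -0.08. Their summed log2 intensity was 11.54 in MDD 3, 10.86 to 11.42 in the other MDD livers and 10.89 to 11.06 in control livers. The troponin gene Tnnc2 was an exception, being at least 2.57 higher in the MDD liver on each array. Without MDD 3 the calls among the 52 genes were Atp5s, Cox17 and Sdhb.

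**Figure D3:**
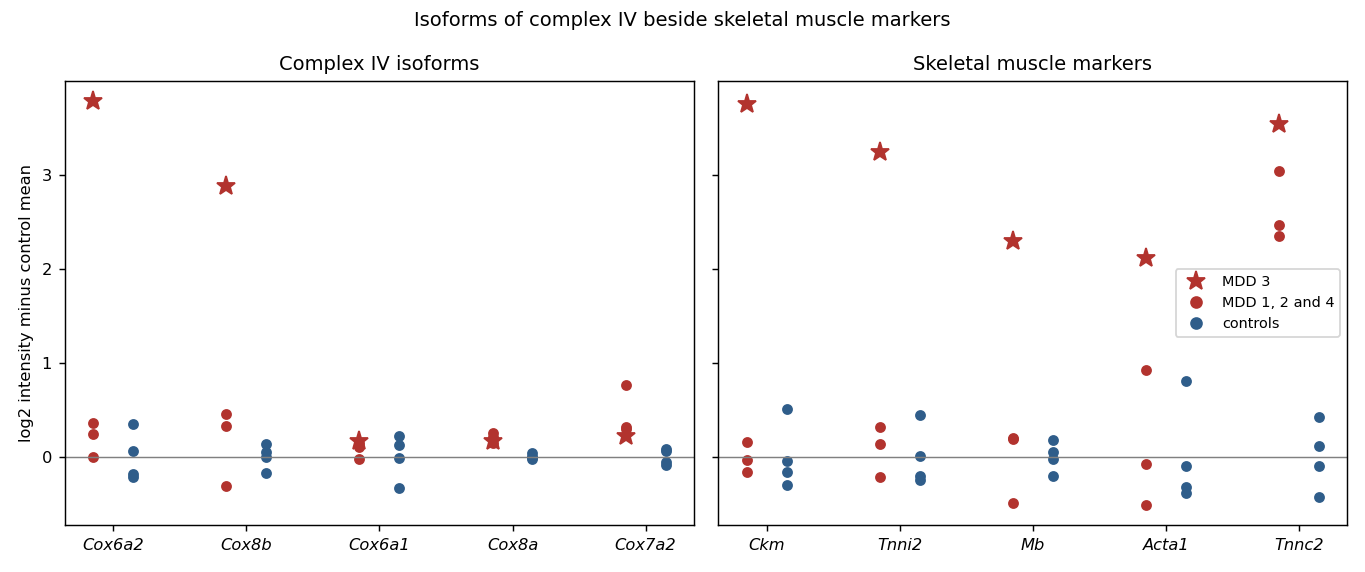
Log2 intensity of 5 complex IV genes and 5 skeletal muscle markers in each liver, minus the mean of the 4 control livers, with MDD points left of control points. The star marks MDD 3, which lies more than 2 units above the control mean for Cox6a2, Cox8b, Ckm, Tnni2, Mb and Acta1 and near the other livers for Cox6a1, Cox8a and Cox7a2. For Tnnc2 all 4 MDD livers lie above the controls.

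The balance within isoform pairs was compared between the diets by an exact two-sided permutation test over the 70 splits of 8 livers, whose smallest possible p is 0.0286. This test takes no account of array or dye. Cox4i2 minus Cox4i1 was 0.13 higher in MDD livers (p = 0.429, exact). Cox8b minus Cox8a was 0.65 higher in MDD livers, with MDD 3 at -5.56 and the other MDD livers between -8.78 and -7.95, against -8.44 to -8.13 in control livers (p = 0.6, exact). For the c subunit of ATP synthase, which is encoded by 3 genes for the same mature protein, Atp5g1 minus Atp5g3 was lower in MDD livers by a difference of -0.13 (p = 0.657, exact) and Atp5g2 minus Atp5g3 by -0.15 (p = 0.429, exact). After adjustment over the 4 pairs each p was 0.657, and no pair passed this test. The probes of the 2 genes of each pair shared no run longer than 6 bases.

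Complex V held 1 call among 18 tested genes (5.56%, beside 4.57% of all genes called higher), and that gene, Atp5s, encodes no subunit. Atp5s was 9.02, 9.02, 8.38 and 8.66 in MDD livers 1 to 4, against 8.15, 8.28, 8.54 and 8.28 in control livers 1 to 4. MDD 3 lay below control 3, so the groups overlapped, while within each array the MDD liver was higher by 0.23 to 0.74. The difference was 0.46 ± 0.11 (SE, adjusted p = 0.0365 by limma). Atp5s was called in 13 of 29 settings. Its namesake Atp5sl differed by 0.07 ± 0.08 (SE).

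The 15 subunit genes of complex V had a median difference of 0.04 and 0 calls by limma. Before adjustment, 4 of them were higher and 0 lower at p under 0.05. In the catalytic F1 head the 3 large subunits were lower on average and the 2 small ones higher. Atp5a1, Atp5b and Atp5c1 (the alpha, beta and gamma subunits) had differences of -0.08 ± 0.11, -0.31 ± 0.27 and -0.16 ± 0.15 (SE), whereas Atp5d and Atp5e (delta and epsilon) had 0.22 ± 0.09 and 0.24 ± 0.09. No F1 gene passed the test, with adjusted p from 0.114 for Atp5e to 0.686 for Atp5a1 by limma.

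The F1 genes spread most widely on array 2. Atp5b was 12.03 in MDD 1, against 13.57 to 13.82 in the other MDD livers and 12.96 to 14.13 in control livers. On array 2 the difference between MDD 1 and control 3 was -1.51 for Atp5b, -0.88 for Atp5c1 and -0.47 for Atp5a1, but 0.80 for Atp5e and 0.49 for Atp5d. On array 1 Atp5b and Atp5c1 were higher in the MDD liver, by 0.61 and 0.50, so that the sign was not shared by the arrays. Array 4, like array 2 with the MDD liver in Cy5, gave -0.31 for Atp5b, -0.28 for Atp5c1 and 0.18 for Atp5a1. For Atp5e and Atp5d it gave 0.44 and 0.11. The part of dye in these differences within arrays was not tested. Among the 5 F1 genes the SD reached 0.955 on array 2, against 0.305 on array 1, 0.128 on array 3 and 0.32 on array 4. Array 2 was also the widest over all genes tested, with an SD of 0.574, against 0.312, 0.4 and 0.42 on arrays 1, 3 and 4.

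**Figure D4:**
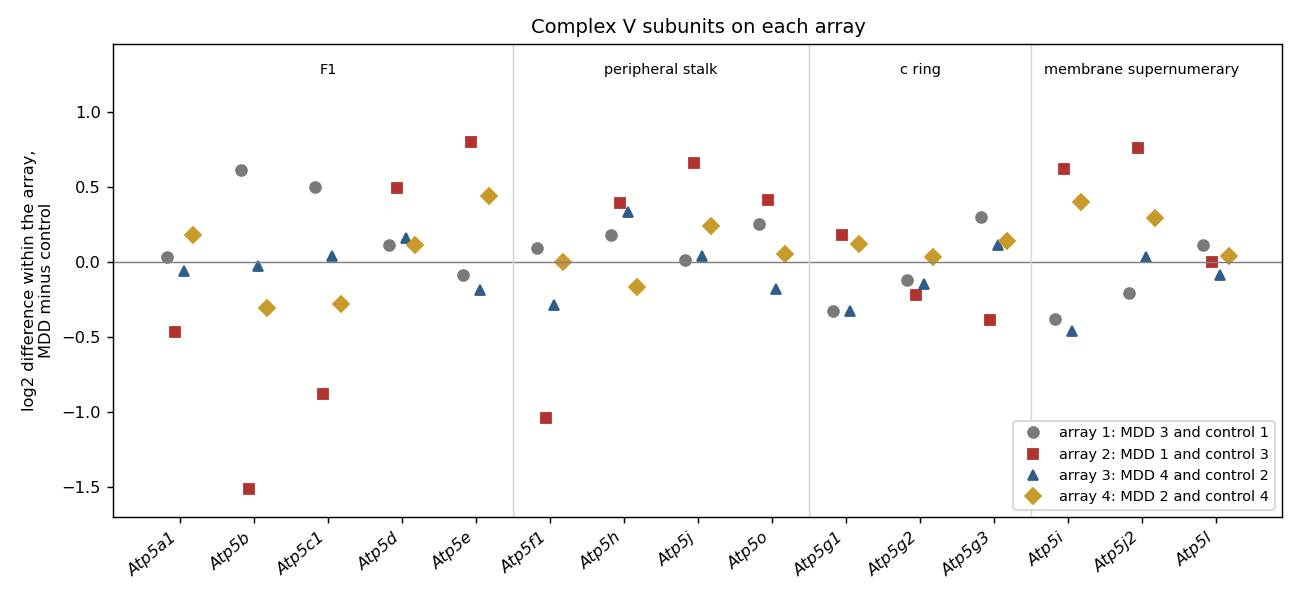
Log2 difference between the MDD and the control liver of each array for the 15 subunit genes of complex V, grouped by their place in the enzyme. These differences carry no dye term. On array 2 (squares) the genes spread from -1.51 for Atp5b to 0.80 for Atp5e, wider than on the other 3 arrays.

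In the peripheral stalk, which holds the head still against the turning rotor, 3 of 4 genes lay above 0 and 1 below, with a median of 0.16. Atp5f1 (subunit b) was 14.64 in MDD 1, against 15.34 to 15.75 in the other MDD livers and 15.26 to 15.75 in control livers, with a difference of -0.31 ± 0.18 (SE, adjusted p = 0.295, limma). Atp5j (coupling factor 6) averaged 14.35 ± 0.27 in MDD livers and 14.11 ± 0.03 in control livers (SD, n = 4 each), with the MDD liver higher on each array by 0.01 to 0.66. Atp5h and its copy Atp5hl1 gave nearly the same differences, 0.18 and 0.17, and Atp5o gave 0.13. The c ring genes Atp5g1, Atp5g2 and Atp5g3 differed by -0.09, -0.12 and 0.04, and the membrane subunit genes Atp5i, Atp5j2 and Atp5l by 0.04, 0.22 and 0.02. Atp5if1, which falls outside the name rule and encodes the inhibitor of ATP synthase, was called higher at 0.39 ± 0.07 (SE, adjusted p = 0.0157 by limma). It was the only call among the 6 tested assembly and regulatory genes of complex V outside the name rule.

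Array 2 had wide differences for the whole set and for all genes, and not for complex V alone. On it 18 of 52 genes were more than 0.4 higher and 6 more than 0.4 lower in MDD 1 than in control 3 (46.2% beyond 0.4, beside 39.5% of all genes). The 6 lower genes were Atp5a1, Atp5b, Atp5c1, Atp5f1, Cox5a and Uqcrc2. The highest was Cox7c at 1.03, followed by Cox7a2 at 0.81 and Atp5e at 0.80. On arrays 1, 3 and 4 the genes beyond 0.4 numbered 4, 3 and 8 of 52 (7.69%, 5.77% and 15.4%), beside 12.8%, 17.2% and 20.8% of all genes. The SD of the set was 0.505 on array 2, against 0.21 on array 3 and 0.242 on array 4. On array 1 it was 0.416, and 0.195 without Cox8b. The SD over all genes was 0.312, 0.574, 0.4 and 0.42 on arrays 1 to 4. The hepatocyte markers had medians of -0.32, -0.91, -0.73 and -0.25 on arrays 1 to 4, and their relation to the spread of the set was not tested. The part of array 2 in these results was not tested beyond the fit without it.

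Complex I, tested as the 42 genes whose names begin with Nduf, gave 3 genes called higher and 0 lower by limma (before adjustment, 9 and 1 at p under 0.05), with a median difference of 0.10. The set of complexes II to V therefore had nearly the same median and share of calls (7.69% beside 7.14%), and no difference between the 2 sets was tested. Among 14 tested regulators of respiratory chain genes, Esrra (0.47), Ppargc1b (0.30) and Nrf1 (0.27) rose and the mitochondrial RNA polymerase gene Polrmt (-0.32) fell. The median difference of these 14 genes was -0.08. Over all genes, 4.57% were called higher and 6.58% lower. Gabpa, which encodes the DNA-binding part of GABP, differed by -0.23 (adjusted p = 0.0941, limma). Of 8 tested genes that feed ubiquinone by other routes, Prodh (-1.43) and Sqor (-0.48) fell and 0 rose. Of 19 tested markers of mitochondrial mass and biogenesis, the ADP/ATP carrier gene Slc25a4 rose (1.92) and Phb2 fell (-0.45), and their median difference was 0.08.

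The precision of the fit limits what an uncalled gene means. The SE lay between 0.07 and 0.42 with a median of 0.09, and for 39 of 52 genes the 95% interval lay within 0.5 log2 units of 0 on both sides. This limit is wider than the differences of the 4 called genes, 0.29 to 0.46. An uncalled gene was therefore not shown to be unchanged.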

How the data were processed

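Liver RNA of 4 MDD and 4 control rats was hybridised on 4 two-colour Agilent arrays. Spot intensities of both channels are deposited as the output of Agilent Feature Extraction (version 10.7.1.1, per the submitters' processing notes), not normalized between arrays. A deposited table of the authors' processed values served as an alternative, and its normalization is not stated in the sources used here. Its scale was read as intensity by setting each column against its array. On the log2 scale its correlation with the mean spot signals, before correction and normalization, was 0.9945 or more. Column medians of that table were 183.8 to 192.5.

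Mean signals were background-corrected with limma 3.58.1 (R 4.3.3; normexp, offset 50) after 74 spot values with a local background over 5 times the channel median had been left out, then normalized by loess within and Aquantile between arrays. Log2 values of spots deposited for 1 probe were averaged. A probe was kept if well above background in at least 4 of 8 samples, and the brightest probe stood for its gene. The fit estimated diet, corrected for dye, with each array as a random block (correlation 0.422), and made calls at an adjusted p under 0.05. Probe names are those of the array design, and symbols and promoters were matched through RefSeq.

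Named were the called genes, the 4 with the largest rise and fall in complexes III, IV and V, all of complex II, isoform pairs and catalytic core genes, and called genes of further lists. The set, lists and tests were chosen with earlier results of these data known. Replicate numbers do not pair animals; only the array does. The number of arrays limits the precision.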

Additional observations from a re-analysis of the deposited data

Results flagged for a closer look

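In 6 of 108 groups of 4 livers (54 genes in 2 diet groups), 1 liver lay apart from the other 3 by a gap test at the 95% level, which chance alone meets in about 1 group in 20. In MDD 1, Atp5b was 12.03 (13.57 to 13.82 in the other MDD livers), Atp5c1 was 12.94 (13.76 to 13.86 in the others) and Sdhd was 14.23 (14.34 to 14.35 in the others), all on the low side. In MDD 3, Cox6a2 was 10.44, above 6.65 to 7.02 in the other MDD livers, together with the muscle markers described above. In control 1, Sdhc was 11.98, below 12.79 to 12.93 in the other control livers, and its array partner MDD 3 was the lowest MDD liver for Sdhc at 12.11. In control 4, Cox11 was 7.24, below 7.50 to 7.54 in the other control livers. The part of these livers in the results was tested only by leaving each out.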

How the results depend on the processing

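Over 29 alternative settings 0 called results reversed. Of 116 medians of the complexes, 115 stayed within their spread over the arrays, the exception being complex II in females alone (-0.03). That spread was 0.13, 0.17, 0.08 and 0.11 for complexes II to V, beside main medians of 0.13, 0.07, 0.12 and 0.06. The spread is thus wide beside the medians, and staying within it is a weak check. Gene by gene, 64 values lost a call and 34 gained one. The number of genes called higher, 4 of 52, was 2 with spots of very high local background kept and 2 from Agilent's processed signals, 7 after quantile normalization and 12 with sample weights (4081 genes called on the array, against 1665). It was 1 without the dye term, and 0 with the array as a fixed block, without the block, from within-array ratios, with sex added and in females alone, where 470, 400, 470, 826 and 59 genes were called on the array. In these 5 limma fits 8, 8, 8, 11 and 4 genes of the set were higher at an unadjusted p under 0.05, and in females 4 were lower. The fixed-block and within-array ratio fits make the same comparison, although both are counted among the 29 settings. The number called higher was 1 without array 1, 2 without array 2, 0 without array 3 and 10 without array 4, where 1 gene was called lower. Over all genes these fits called 1117, 914, 211 and 2894. Leaving out 1 liver at a time gave 0 to 13 genes called higher and 0 to 2 called lower, among 387 to 3562 genes called on the array. Sample weights gave 3 genes of the set lower at an unadjusted p under 0.05. The 5 calls among 62 probes tested singly included both Cox7a2 probes. The causes of these differences were not tested. No paired analysis by replicate number was possible because the labels number no replicates, and the array is the block. Isoform pairs were not refitted on single probes.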
